A study of Mus musculus with 2 samples.

Results

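The ATP-binding cassette (ABC) genes of subfamilies A to G were described in total RNA-seq of the adrenal gland of 2 aged mice. The family was taken as the protein-coding genes whose symbol is Abc followed by a letter from a to g, a number and an optional letter, which gave 50 of the 22028 protein-coding genes in the gene tables. The glands were from B6CASTF1/J females, an F1 hybrid of C57BL/6J with CAST/EiJ, at an age of 18 to 20 months, and no treatment is named. There was 1 group and 1 library per animal, called animal 1 and animal 2 after the replicate numbers in the labels, with 300 ng of starting RNA for each. The labels give both samples 1 donor identifier, and a description field of animal 2 repeats the name of animal 1, while the tissue samples and the other name fields differ. All values describe these 2 libraries, since an exact sign-flip test on 2 animals cannot go below a two-sided p of 0.5 and none was run. The spread between the libraries may be technical, and no second sex, age or treatment was compared.

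ABC proteins bind and hydrolyse ATP, and most use that energy to carry lipids, sterols, peptides, conjugates or drugs across a membrane. Full-length transporters hold a pair of nucleotide-binding domains in 1 chain, whereas half-size transporters join as dimers. In the adrenal cortex, which takes up lipoprotein cholesterol for steroid synthesis, ABC proteins are known for returning excess cholesterol to lipoproteins, for exporting steroids and xenobiotics, and for importing very long chain fatty acids into peroxisomes.

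Levels are given as TPM of the deposited gene table, a transcript abundance corrected for length and scaled to a fixed total per library. Differences between the animals are log2 ratios of animal 1 over animal 2 on TMM-scaled expected counts with 0.5 added, so a positive ratio is higher in animal 1. Total expected counts were 35769717 in animal 1 and 35135703 in animal 2. The tissue held the markers of its label, the 6 cortical ones at 15553 and 20001 TPM in sum and the 5 of medullary chromaffin cells at 1796 and 1517 TPM in animals 1 and 2. By TMM-scaled counts, 2 of the 6 cortical markers were higher in animal 1 and 4 in animal 2. Markers of other cell types were present too and differed between the animals. The 5 adipocyte markers summed to 2408 and 1336 TPM, with none of them at 0 and all 5 higher in animal 1. Of the 6 striated muscle markers, summing to 161 and 0.34 TPM, Ckm, Myh2 and Atp2a1 were listed at 0 in animal 2. The 5 endothelial markers summed to 126 and 138 TPM, the 5 mural markers to 25.7 and 21.7, the 5 fibroblast markers to 102 and 88.0, and the 5 macrophage markers to 45.7 and 61.6 TPM. Within the mural sum Des alone had 10.1 and 4.80 TPM, and the median log2 ratio of the 5 mural markers was 0.06. Hepatocyte markers summed to 17.4 and 6.92 TPM, and kidney tubule markers to 1.07 and 1.26 TPM, with Slc12a1 at 0 in both animals. In such bulk tissue, fewer cells of a type and less RNA per cell cannot be told apart.

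Of the 50 ABC genes, 33 were detected at 1 TPM or more in both animals, or 66.0%, against 52.4% of all protein-coding genes. Another 12, or 24.0%, stood under 0.1 TPM in both, against 30.4% of all protein-coding genes. The family summed to 591 and 770 TPM in animals 1 and 2, a mean of 680 ± 127 (SD, n = 2), and 10 members reached 10 TPM in both. One gene held much of that sum. Abcb1b alone made up 44.2% of the family's TPM in animal 1 and 46.6% in animal 2, and the second quantification gave 42.7% and 46.5%. The detected members had a median of 6.80 TPM, against 9.82 TPM for detected protein-coding genes, so a typical detected member lay below the typical detected gene. Of the 19 members with a longest coding sequence under 3000 bases 16 were detected, and of the 31 longer ones 17, a difference that was not tested. The detected share of all protein-coding genes by coding length was not taken, so these counts have no background.

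**Figure D1:**
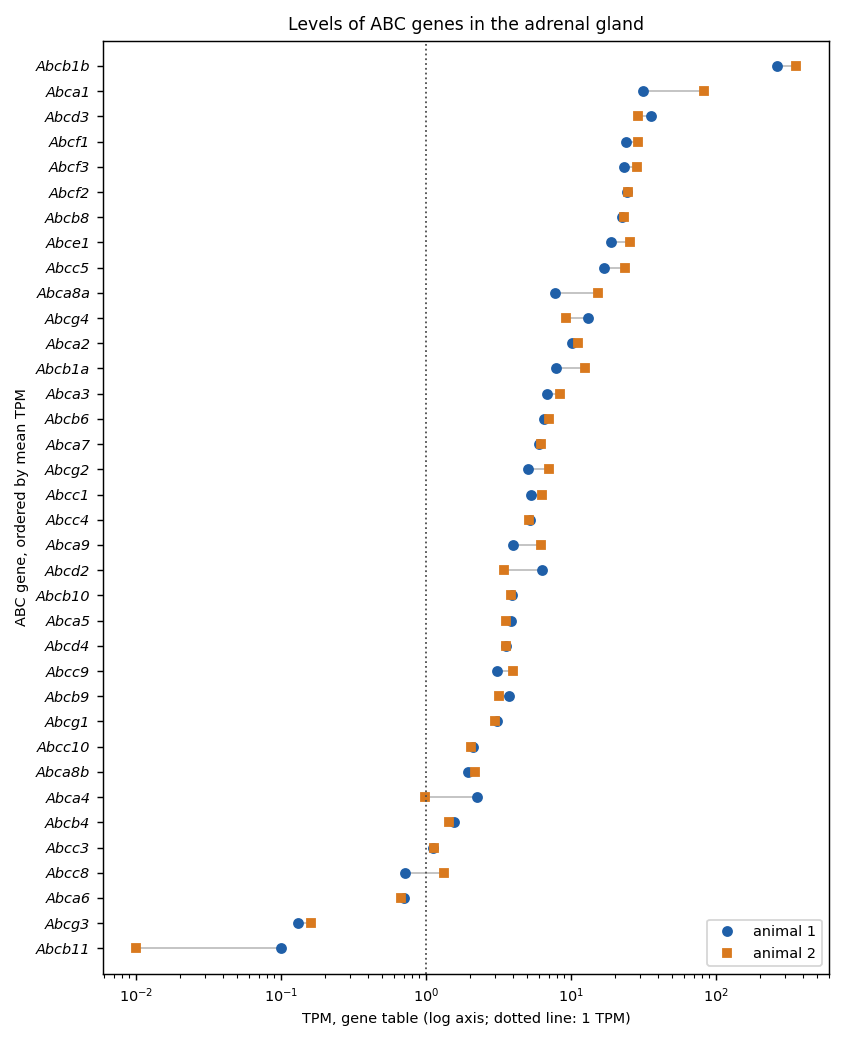
TPM in animal 1 (circles) and animal 2 (squares) on a log axis for the ABC genes described here at 0.1 TPM or more in either animal, ordered by mean TPM; the dotted line marks 1 TPM. Abcb1b stands at 262 and 358 TPM, apart from Abca1 at 31.2 and 82.7 TPM, and most other pairs of points lie close together.

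Transporters of drugs, conjugates and bile salts held 51.7% of the family's TPM in animal 1 and 54.1% in animal 2, most of it in Abcb1b. Abcb1b (ENSMUSG00000028970.9, mm10 chr5:8798147-8866315, plus strand) encodes 1 of the mouse forms of the multidrug pump P-glycoprotein, which in rodent adrenal cortex also carries corticosteroids. It had 262 and 358 TPM in animals 1 and 2, from 29229 and 37418 expected counts, and ranked 113 among 22028 protein-coding genes by mean TPM. Its log2 ratio was -0.44, a 1.36-fold higher level in animal 2, and it stayed negative under all 5 alternatives, from -0.66 to -0.40. Its paralog Abcb1a, the form known from the blood-brain barrier and the intestine, had 7.86 and 12.4 TPM. The ratio of Abcb1b to Abcb1a was 33.3-fold in animal 1 and 28.8-fold in animal 2, a log2 ratio of 4.95 ± 0.15 (SD, n = 2). It was 4.98 in the second table and 4.22 on expected counts with no length correction. These paralogs are close in sequence, and 8.72% of the 100-base windows of the longest coding transcript of Abcb1b, and 7.72% of those of Abcb1a, also occurred in a transcript of another gene. The split of reads between them is therefore less certain than their summed level.

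Downstream of Abcb1b on the same strand lies Abcb4 (mm10 chr5:8893717-8959231), the phosphatidylcholine floppase of bile. The 2 genes are separated by 27401 bases, and Abcb1a lies 49571 bases on the other side of Abcb1b. Abcb4 had 1.56 and 1.45 TPM in animals 1 and 2, from 217 and 196 expected counts. Within 1 tandem cluster, levels thus ran from just above the detection limit to the highest of the family. The promoters of Abcb1b and Abcb4 are shown because these neighbours lie so far apart in level. The windows run from 250 bases before to 50 bases after the RefSeq start (GRCm38.p6), at chr5:8797897-8798196 and chr5:8893471-8893770, plus strand. That start was 0 bases from the GENCODE gene start for Abcb1b and 4 bases for Abcb4. Capitals mark matches, on either strand, to the CCAAT box (CCAAT, or ATTGG on the other strand) and the GC box (GGGCGG).
Abcb1b: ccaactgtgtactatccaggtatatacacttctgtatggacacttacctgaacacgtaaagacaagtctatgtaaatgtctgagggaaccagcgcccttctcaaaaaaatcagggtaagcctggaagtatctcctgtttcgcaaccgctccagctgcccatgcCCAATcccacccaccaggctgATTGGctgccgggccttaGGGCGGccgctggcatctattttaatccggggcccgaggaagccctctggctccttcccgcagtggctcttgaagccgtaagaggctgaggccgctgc
Abcb4: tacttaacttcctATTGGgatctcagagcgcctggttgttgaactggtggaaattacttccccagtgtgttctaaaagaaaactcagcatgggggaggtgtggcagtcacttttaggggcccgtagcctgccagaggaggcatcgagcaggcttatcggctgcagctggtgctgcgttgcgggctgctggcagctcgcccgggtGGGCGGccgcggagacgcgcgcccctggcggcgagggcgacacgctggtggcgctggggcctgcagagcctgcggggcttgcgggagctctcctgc

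The Abcb1b window held 2 CCAAT matches, with first bases at -87 and -66 from the start site, and a GC box match at -48. The Abcb4 window held a GC box match at -46 and a CCAAT match at -237. Of the 50 members, 38 had a window in the RefSeq table, 45 windows in all, and Abca6, Abcb8, Abcc1, Abcc3, Abcc6, Abcc8, Abcd2, Abcd4, Abcg1 and Abcg4 were among those with none there. CCAAT was found in 35.6% of them and in 37.4% of all 32851 windows, and GGGCGG in 46.7% and 35.7%. The nuclear receptor site AGGTCA occurred in 15.6% of the members' windows and in 16.3% of all windows. Its longer form CAAGGTCA, which contains AGGTCA and is the form bound by the cortical factor NR5A1, occurred in 2 windows of the family, or 4.44%, against 1.56% of all windows. Those 2 windows belong to Abcc10 and Abcg2, and none of the windows printed here held either form. A match is a string of letters and not a measured site. All windows are reference sequence, and alleles of these hybrid animals may differ from it.

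**Figure D2:**
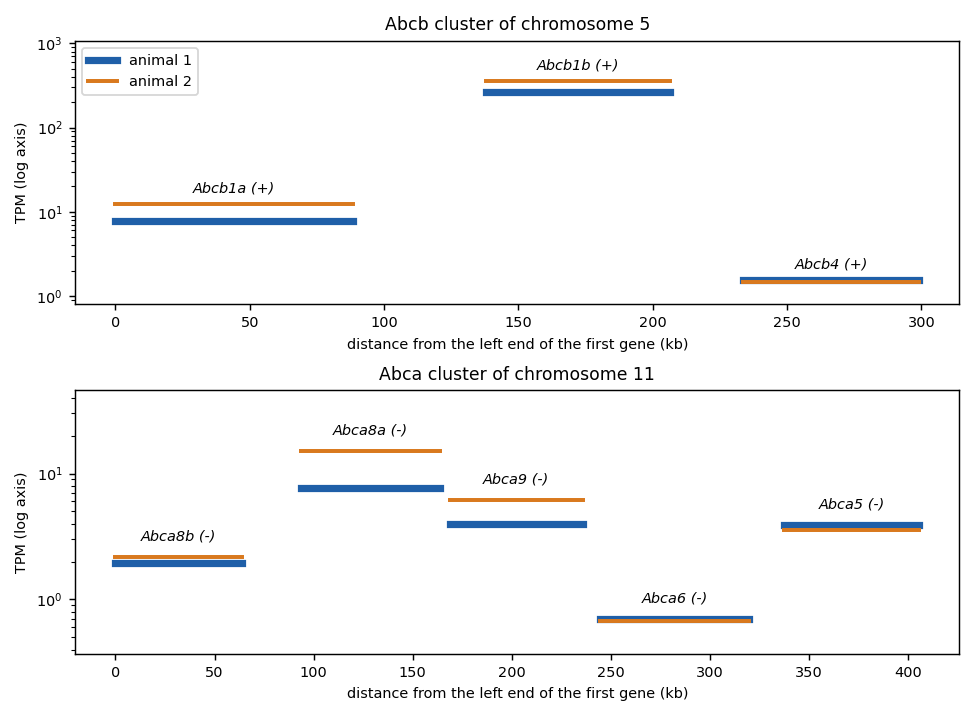
TPM in animal 1 (thick bars) and animal 2 (thin bars) on a log axis against the distance in kb from the left end of the first gene, for the Abcb cluster of chromosome 5 and the Abca cluster of chromosome 11; each bar spans a gene. Abcb1b lies between Abcb1a at 7.86 and 12.4 TPM and Abcb4 at 1.56 and 1.45 TPM, and the Abca cluster runs from Abca6 at 0.70 and 0.67 TPM to Abca8a at 7.73 and 15.2 TPM.

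Among the multidrug resistance proteins, Abcc5, an exporter of cyclic nucleotides and other organic anions, was the highest at 17.0 and 23.5 TPM in animals 1 and 2. Abcc1, which exports glutathione conjugates and leukotrienes, had 5.26 and 6.27 TPM. Abcc4, an exporter of cyclic nucleotides and prostaglandins, had 5.25 and 5.11 TPM, and the log2 ratio of Abcc1 to Abcc4 of 0.15 ± 0.21 (SD, n = 2) did not exceed the spread between the animals. Abcg2, the breast cancer resistance protein, had 5.02 and 7.07 TPM. Abcc10 had 2.12 and 2.05 TPM and Abcc3, an exporter of glucuronides, 1.11 and 1.13 TPM. The TPM intervals of the animals overlapped for all of these but Abcc5. Of the 8 measured genes of this group, Abcb1b and Abcb1a included, 6 were higher in animal 2 with TMM and all 8 when libraries were scaled to the spike-in totals. Spike-in scaling put 31 of the 36 measured members higher in animal 2. It moved the median log2 ratio over measured protein-coding genes to -0.20, against 0.02 with TMM. The remaining pumps of this group were far under the detection limit of 1 TPM. The bile salt pump Abcb11 had 14 and 2 expected counts, the bilirubin conjugate exporter Abcc2 11 and 17, the ATP release protein Abcc6 7 and 5, Abcc12 3 and 2, and Abcb5 1 count in animal 1 and 0 in animal 2. Where no read was counted, up to 3 counts remain possible by counting error alone, which is 0.0839 CPM in animal 1 and 0.0854 CPM in animal 2.

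Exporters of sterols and phospholipids summed to 55.1 and 103 TPM in animals 1 and 2, most of it from Abca1. Abca1 (ENSMUSG00000015243.4, mm10 chr4:53030787-53159895, minus strand) hands cellular cholesterol and phospholipid to apolipoprotein A-I, the first step in making high-density lipoprotein. Animal 1 had 31.2 TPM and animal 2 82.7 TPM, from 12243 and 29528 expected counts. The table gives with each TPM the bounds of an interval from a separate posterior estimate, which need not hold the TPM itself. Those of Abca1, 30.1 to 31.5 in animal 1 and 80.1 to 82.5 in animal 2, did not overlap. The log2 ratio was -1.35, or 2.55-fold higher in animal 2, with a counting error of 0.02. It was negative under all 5 alternatives, from -1.57 with spike-in scaling to -1.30 in the second quantification. A single protein-coding transcript, Abca1-201, held 99.2% of its TPM in animal 1 and 98.9% in animal 2.

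The promoter of Abca1 is shown because no other member measured with non-overlapping intervals differed as much between the animals. The window is GRCm38.p6 chr4:53159846-53160145, minus strand, and its start site is the GENCODE gene start. Capitals mark the GC box (GGGCGG), the E-box (CACGTG) and the TATA box (TATAAA).
Abca1: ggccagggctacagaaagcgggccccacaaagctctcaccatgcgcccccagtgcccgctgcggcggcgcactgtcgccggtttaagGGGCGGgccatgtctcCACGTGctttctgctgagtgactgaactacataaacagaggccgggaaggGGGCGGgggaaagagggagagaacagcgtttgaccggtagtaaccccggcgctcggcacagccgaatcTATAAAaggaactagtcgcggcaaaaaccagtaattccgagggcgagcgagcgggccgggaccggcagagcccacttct

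The TATAAA match began at -29 from the start site, the GC boxes at -163 and -97 and the E-box at -147. TATAAA occurred in 15.6% of the members' windows and 13.6% of all windows, and CACGTG in 13.3% and 7.15%. The exact letters AGGTCA were not found in this window on either strand, and variants of that site were not searched for.

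Abcg1, which loads cholesterol onto mature high-density lipoprotein, differed from Abca1 in both level and spread. It had 3.07 and 3.01 TPM in animals 1 and 2, so that Abca1 exceeded it 10.2-fold in animal 1 and 27.5-fold in animal 2, a log2 ratio of 4.06 ± 1.01 (SD, n = 2) that was 5.63 on expected counts with no length correction. Abcg4, a close relative of Abcg1 known mainly from brain, stood above Abcg1 at 13.2 and 9.27 TPM. Abcg4 was 1.76-fold higher in animal 1, with a log2 ratio of 0.82 that was 0.60 under spike-in scaling and 0.51 by deposited TPM, and its intervals did not overlap. Abca7, a phospholipid exporter also linked to phagocytosis, had 6.00 and 6.21 TPM. Abcg5 and Abcg8, which together form the sterol exporter of liver and intestine, were near 0, with 3 and 2 expected counts for Abcg5 and 2 and 0 for Abcg8. These 2 genes lie head to head and overlap by 6710 bases on opposite strands of chromosome 17, and no ratio between them was interpretable.

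Both Abca1 and Abcg1 are known targets of the oxysterol receptors LXR, and the other genes of that pathway differed in both directions. Of 10 listed LXR pathway genes, 7 were higher in animal 1 and 3 in animal 2 with TMM, or 4 and 6 with spike-in scaling, with a median log2 ratio of 0.20 (TMM), and none was at least 2-fold apart. The receptors Nr1h3 and Nr1h2 had 12.2 and 6.70 TPM and 29.8 and 38.6 TPM in animals 1 and 2. Apoe, a lipoprotein acceptor of cholesterol, had 208 and 370 TPM, Srebf1 56.1 and 42.6 TPM and Mylip 2.24 and 2.08 TPM. Of the genes of cholesterol uptake and use, the lipoprotein receptor Scarb1 had 559 and 897 TPM, the lysosomal cholesterol exporter Npc1 29.2 and 36.8 TPM and the mitochondrial cholesterol carrier Star 2984 and 5374 TPM. Of the 7 measured genes of that list, 5 were higher in animal 2 with TMM and all 7 with spike-in scaling. The latter scaling also put the median over all measured protein-coding genes at -0.20, toward animal 2. The 5 markers of macrophages, a cell type also known for Abca1, were all higher in animal 2 by scaled counts under both scalings, with a median log2 ratio of -0.35 (TMM) and no marker at 0, although the TPM of Adgre1 was higher in animal 1. Their part in the Abca1 difference was not tested.

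The peroxisomal and lysosomal Abcd genes summed to 52.2 and 43.5 TPM in animals 1 and 2. Abcd3 (PMP70), which imports branched-chain fatty acids and bile acid precursors into peroxisomes, was the third of the family by level, at 35.5 and 29.1 TPM. Its log2 ratio was 0.31, and 0.09 with spike-in scaling. Abcd2, a peroxisomal fatty acid importer expressed in fat, had 6.31 and 3.46 TPM. Its log2 ratio between the animals was 0.79, and 0.57 with spike-in scaling, with intervals that did not overlap. The 5 adipocyte markers had a median log2 ratio of 0.68, and all 5 were higher in animal 1 under both scalings, Ucp1 at 743 and 298 TPM and Adipoq at 124 and 80.1 TPM. Their part in the Abcd2 difference was not tested. Abcd4, which moves cobalamin out of lysosomes, had 3.57 TPM in both animals, and its partner Lmbrd1 had 18.0 and 24.2 TPM. Pex19, which brings Abcd proteins to the peroxisome, had 41.3 and 39.1 TPM.

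The Abcb genes of mitochondria and the endolysosome summed to 46.3 TPM in each animal in the gene table, and to 78.2 and 69.6 TPM in animals 1 and 2 in the second transcript table. All 5 were detected and all 5 had overlapping intervals. Abcb8, a subunit linked to mitochondrial potassium and iron handling, led with 22.3 and 23.1 TPM in animals 1 and 2. Abcb10, which takes part in heme synthesis, had 3.89 and 3.86 TPM. Abcb6, known for porphyrin transport, had 6.56 and 7.03 TPM. Of its windows 86.6% also occurred in transcripts of other genes, with Gm29253 sharing the most. The level of Abcb6 therefore depends on how reads were divided and is uncertain. The lysosomal peptide transporter Abcb9 had 3.76 and 3.20 TPM. With TMM all 5 log2 ratios were positive, but with spike-in scaling only that of Abcb9 was. The antigen peptide transporters Tap1 and Tap2, ABC proteins under other symbols, had 3.95 and 4.17 TPM and 14.1 and 15.6 TPM, while the chloride channel Cftr had 11 and 9 expected counts.

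**Figure D3:**
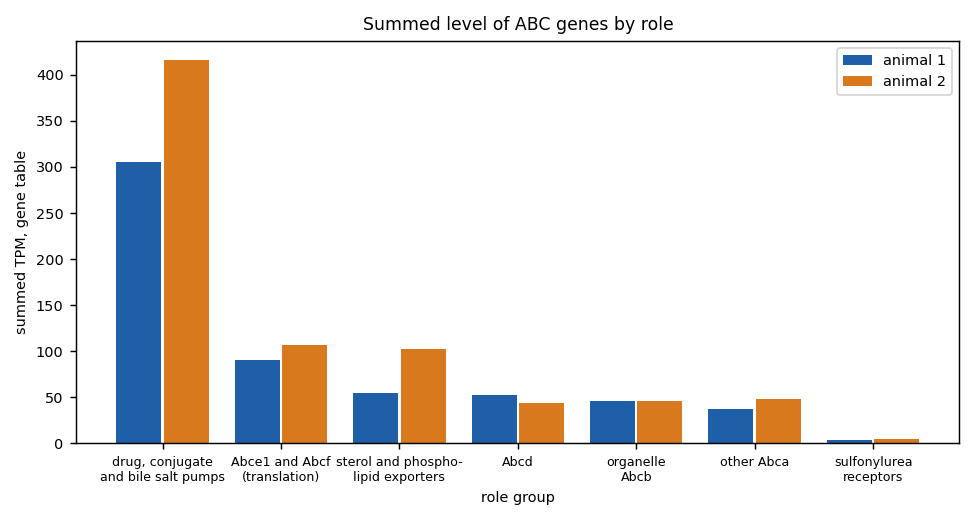
Summed TPM of the gene table by role group, with animal 1 left of animal 2 in each pair of bars; Abcg3, at 0.13 and 0.16 TPM, is left out. Drug, conjugate and bile salt pumps summed to 305 and 416 TPM, sterol and phospholipid exporters to 55.1 and 103 TPM, and the organelle Abcb genes to 46.3 TPM in each animal.

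Abce1 and the Abcf genes carry the ABC fold but are not transporters. Abce1 recycles ribosomes after termination, and the Abcf proteins act in translation. They summed to 90.5 and 107 TPM in animals 1 and 2, and held 15.3% and 13.9% of the family's TPM. Abcf1 had 24.1 and 28.9 TPM, Abcf2 24.2 and 24.5 TPM and Abcf3 23.3 and 28.4 TPM. The log2 ratio of Abcf1 to Abcf3 in TPM was 0.04 ± 0.02 (SD, n = 2), 0.15 ± 0.07 in the second table, and 0.76 on expected counts with no length correction. In the second table Abcf2 lay below both, with mean TPM of 61.0 for Abcf1, 41.8 for Abcf2 and 54.7 for Abcf3. Abce1 had 19.0 and 25.4 TPM, with intervals that did not overlap and a log2 ratio of -0.36.

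Of the remaining Abca genes, 6 of 14 were detected. Abca2, a lysosomal lipid transporter abundant in myelinating cells, had 10.2 and 11.1 TPM. Abca3, the lipid transporter of lung surfactant bodies, had 6.86 and 8.36 TPM. A cluster of Abca genes on chromosome 11 (mm10 chr11:109932190-110337716, all on the minus strand) holds Abca8b, Abca8a, Abca9, Abca6 and Abca5. Abca8a was its highest member at 7.73 and 15.2 TPM and Abca6 its lowest at 0.70 and 0.67 TPM, while Abca9 had 3.95 and 6.16, Abca5 3.88 and 3.57 and Abca8b 1.95 and 2.18 TPM. Abca8a exceeded its paralog Abca8b 3.96-fold in animal 1 and 6.99-fold in animal 2. These are log2 ratios of 1.99 and 2.80, against 1.56 and 2.08 in the second table and 1.27 and 1.73 on expected counts with no length correction. Abca8a and its direct neighbour Abca9 both differed between the animals, with log2 ratios of -0.50 and -0.58, or -0.72 and -0.81 with spike-in scaling, and intervals that did not overlap. Abca8b, Abca6 and Abca5 had log2 ratios of -0.03, 0.10 and -0.08 with TMM. By deposited TPM the log2 ratio of Abca8a was -0.98, farther from 0 than by counts. A 299-base transcript, Abca8a-206, held 23.1% and 32.1% of the gene's TPM from 13.9 and 34.7 expected counts, and it was at 0 in the second table.

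Abca3 also has a neighbour in the family, the rodent gene Abca17, which lies head to head with it. Abca17 had 4 and 2 expected counts and Abca3 1582 and 1701, with 881 bases between the annotated genes. Their promoter windows (GRCm38.p6 chr17:24351773-24352072, plus strand, and chr17:24351010-24351309, minus strand) are shown for this contrast, with CCAAT or ATTGG and GGGCGG in capitals.
Abca3: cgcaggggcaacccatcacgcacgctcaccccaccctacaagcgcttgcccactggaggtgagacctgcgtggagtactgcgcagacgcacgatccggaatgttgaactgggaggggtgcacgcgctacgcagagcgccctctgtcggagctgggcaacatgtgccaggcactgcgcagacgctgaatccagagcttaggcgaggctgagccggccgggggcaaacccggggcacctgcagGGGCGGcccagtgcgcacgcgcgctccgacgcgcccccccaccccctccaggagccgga
Abca17: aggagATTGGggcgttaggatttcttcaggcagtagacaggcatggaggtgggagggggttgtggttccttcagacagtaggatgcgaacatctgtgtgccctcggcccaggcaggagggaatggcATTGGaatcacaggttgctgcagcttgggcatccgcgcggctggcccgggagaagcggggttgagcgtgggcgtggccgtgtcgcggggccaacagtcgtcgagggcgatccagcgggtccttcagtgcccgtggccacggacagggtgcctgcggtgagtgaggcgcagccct

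The Abca3 window held a GC box match at -9 from the RefSeq start, which lies 73 bases inside the GENCODE gene. The Abca17 window held 2 matches of the CCAAT box, at -245 and -124, and no GC box match. The other Abca genes were near 0: Abca13 had 19 and 12 expected counts, Abca14 0 and 2, Abca16 1 and 0 and Abca12 0 and 1, and Abca15 had 0 in both animals. Abcg3, a rodent gene related to Abcg2, had 15 and 16 expected counts.

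Abca4 and Abcc8 crossed the detection limit in 1 animal each. Abca4, the retinoid flippase of photoreceptors, had 2.26 and 0.98 TPM in animals 1 and 2, from 129 and 53 expected counts, a 2.29-fold higher level in animal 1. Its full-length transcript did not carry that level. In the first transcript table Abca4-203, a transcript with a retained intron, held 44.2% and 49.5% of the gene's TPM. The protein-coding Abca4-201 held 0.885% in animal 1 and 0 in animal 2. Among its protein-coding transcripts Abca4-207 led by mean TPM, with 3306 coding bases against 6930 in the longest. Abcc8, the sulfonylurea receptor of endocrine and neuronal potassium channels, had 0.72 and 1.32 TPM from 66 and 143 expected counts. It was 2.29-fold higher in animal 2 by scaled counts, but its intervals, 0.65 to 1.56 and 1.25 to 2.34 TPM, overlapped. The other sulfonylurea receptor, Abcc9 of muscle and mural cells, exceeded Abcc8 by 1.85 ± 0.35 on the log2 scale (SD, n = 2), with 3.09 and 4.01 TPM. That ratio was 2.43 in the second table and 3.15 on expected counts with no length correction. The pore subunits that pair with these receptors, Kcnj8 and Kcnj11, had 1.94 and 1.92 TPM and 0.84 and 0.83 TPM. By scaled counts Kcnj11 was higher in animal 1, with 99 and 63 expected counts and a log2 ratio of 0.57, or 0.34 with spike-in scaling. Abcc9 was lower in animal 1, with a log2 ratio of -0.26, while striated muscle markers summed to 161 and 0.34 TPM. The 5 mural markers, Kcnj8 among them, had a median log2 ratio of 0.06 with TMM, but spike-in scaling put 4 of the 5 higher in animal 2. The part of either list in these values was not tested.

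Between the animals, 36 members that averaged at least 50 expected counts were compared, and the other 14 were too low. At least 2-fold apart with non-overlapping TPM intervals were Abca4, higher in animal 1, and Abca1, higher in animal 2. Spike-in scaling ended the call of Abca4, at a log2 ratio of 0.97, and left that of Abca1. These 2 make up 5.56% of the measured members, against 2.92% of measured protein-coding genes (1.58% higher in animal 1 and 1.34% higher in animal 2), and a count of 2 carries no weight beyond these genes. Intervals did not overlap for 14 members, or 38.9%, against 33.1% of measured protein-coding genes. Of these, 4 were higher in animal 1, where the share of protein-coding genes was 12.6%, and 10 were higher in animal 2, where it was 20.6%. The 4 were Abca4, Abcg4, Abcd2 and Abcd3, and all 4 remained positive under spike-in scaling. The median absolute log2 ratio was 0.17 over the measured members and 0.21 over measured protein-coding genes, and 22 of the 36 members lay within 0.25 of 0. By sign, 16 members were higher in animal 1 and 20 in animal 2 with TMM, but 5 and 31 with spike-in scaling, which moved the median over measured protein-coding genes to -0.20, against 0.02 with TMM.

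**Figure D4:**
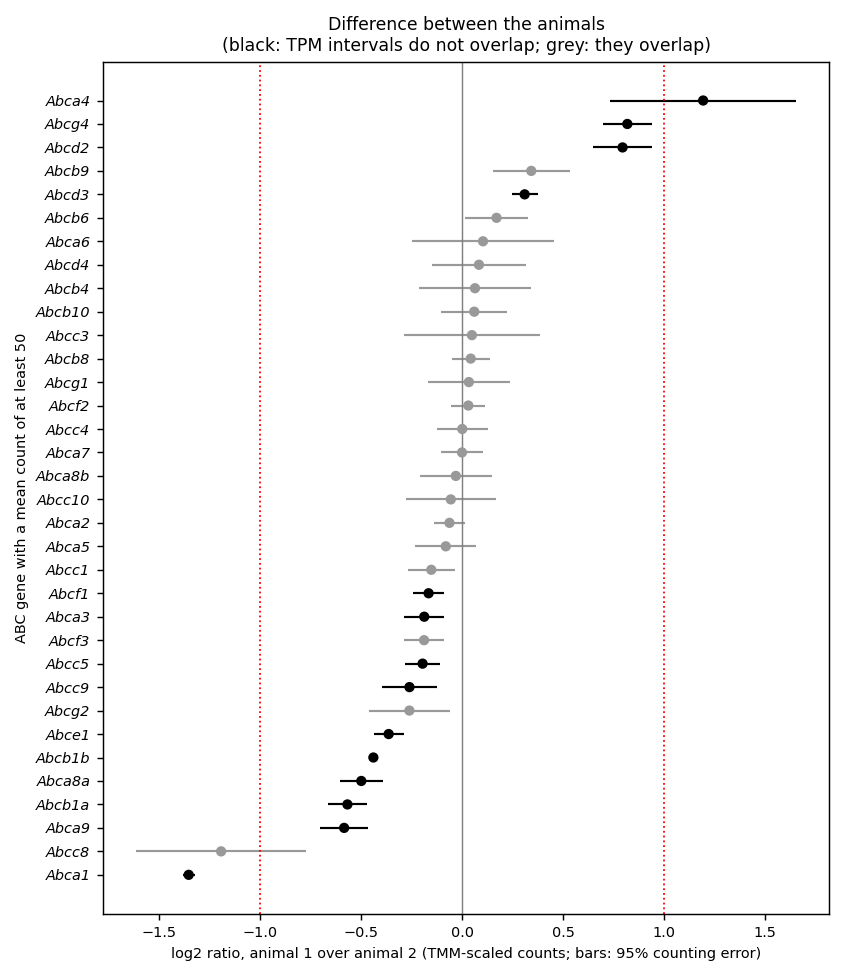
Log2 ratio of animal 1 over animal 2 on TMM-scaled counts for 34 of the 36 ABC genes that averaged at least 50 expected counts; bars are 95% counting error, black points have TPM intervals that do not overlap and dotted lines mark 2-fold. Abca1 at -1.35 and Abca4 at 1.19 lie beyond the 2-fold lines with intervals apart, Abcc8 at -1.19 lies beyond with overlapping intervals, and Abcb1b at -0.44 lies inside them with intervals apart.

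In all 33 detected members the transcript with the highest mean TPM was protein-coding, and it was the same transcript in the second table for all 33. In 32 it also led in both animals. The exception was Abcc3, where Abcc3-201 held 67.6% of the TPM in animal 1 and 22.1% in animal 2, and Abcc3-206 held 0 and 42.5%, at 149 and 136 expected counts for the whole gene. Protein-coding transcripts held a median of 91.6% of a member's TPM and 97.6% of its counts. For Abcb1b these shares were 82.7% of TPM and 96.2% of counts, a count from a short transcript weighing more in TPM. The 690-base transcript Abcb1b-203, annotated as a target of nonsense-mediated decay, held 15.7% of its TPM in each animal in the first table, and 26.2% in animal 1 and 27.1% in animal 2 in the second. The full-length Abcb1b-201 had 27115 and 34824 expected counts and 166 and 233 TPM. Averaged over the animals, Abcc5 was the only detected member with less than 50% of its TPM in protein-coding transcripts, at 46.7%. That share was 50.6% in animal 1 and 42.9% in animal 2, and the mean share of counts was 65.8%. Transcripts with a retained intron held a mean of 46.3% of its TPM and 33.0% of its counts. Total RNA contains unspliced RNA, so a retained-intron transcript and pre-mRNA cannot be told apart here.

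**Figure D5:**
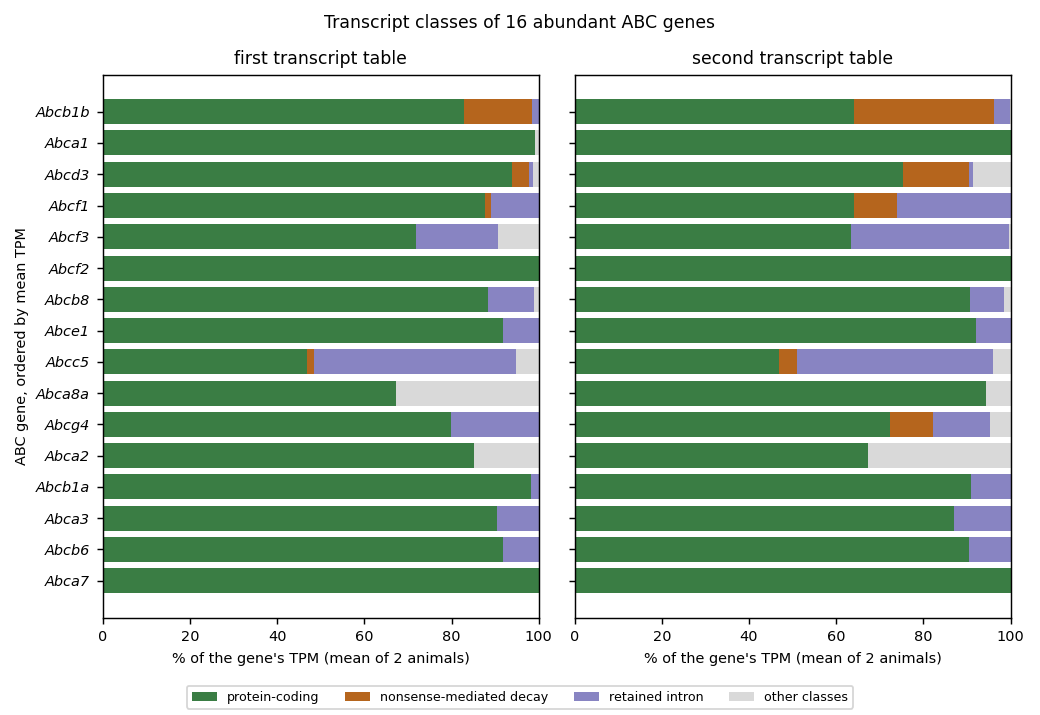
Share of each gene's TPM, in percent and averaged over the 2 animals, held by protein-coding, nonsense-mediated decay, retained-intron and other transcripts in the first (left) and second (right) transcript table, for 16 ABC genes of high mean TPM. Abca1, Abcf2 and Abca7 are almost wholly protein-coding in both tables, Abcc5 stands at 46.7% and 46.9%, and Abcb1b stands at 82.7% in the first table and 64.0% in the second.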

How the data were processed

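Total RNA-seq of 2 adrenal glands was analysed from the deposited tables, 1 library per animal. The authors' gene table and first transcript table hold, per the file headers, expected counts that need not be whole, TPM, and interval bounds of a posterior TPM estimate. A second transcript table deposited for each animal has estimated counts and TPM of its own. Per the deposited file description all use mm10 and GENCODE M21, the first 2 derive from a transcriptome alignment and the second transcript table directly from reads; the programs, their versions and the level of the interval are not given in the sources used. Length minus effective length was 99 bases in the first transcript table, and 328 and 323 in the second for animals 1 and 2.

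All 55536 gene identifiers matched GENCODE M21; 26248 entries named by a number, 96 spike-ins and 1 other entry were left out of the results. Expected counts were rounded and scaled with TMM over all genes (edgeR 4.0.16, R 4.3.3), without a test. A gene was detected at 1 TPM in both libraries, measured at a mean expected count of at least 50, and called apart at a scaled ratio of 2 with TPM intervals that do not overlap. The scaling and the fold limit were tried on simulated counts without the condition on TPM intervals, so the full rule was not checked. Alternatives were DESeq2 1.42.0 size factors, spike-in totals, deposited TPM, the second transcript table, expected counts without length correction for ratios between genes, TPM over nuclear protein-coding genes, and other minima and added counts. Windows of 100 bases were compared across GENCODE transcripts. Promoters are from RefSeq (GRCm38.p6). Members, lists and rules were chosen with earlier results of these data known. Members detected in both animals are given with values in each and the others with counts, and other genes come from fixed lists; 2 members and 1 listed gene are not reported here by name, but group counts and sums include them. Transcripts singled out beside these were chosen after their values were seen.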

Additional observations from a re-analysis of the deposited data

How the results depend on the processing

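The count of detected members was 35 in the second transcript table and 36 at a minimum of 0.5 TPM or with TPM taken over nuclear protein-coding genes, against 33, and 34 with either animal alone. Levels depend on what TPM is scaled over. The family sum of 680 TPM (mean of the animals) was 1190 in the second transcript table and 2246 over nuclear protein-coding genes, the group sums being, in that order, 613 and 1190 for drug, conjugate and bile salt pumps, 196 and 327 for Abce1 and Abcf, 135 and 259 for sterol and phospholipid exporters, 90.2 and 159 for Abcd, 73.9 and 153 for the organelle Abcb genes, 72.9 and 142 for other Abca genes, 7.52 and 15.1 for sulfonylurea receptors, and 0.272 and 0.479 for Abcg3. The order of detected members was nearly the same in both quantifications (Spearman rho 0.988 over 33 genes that share both libraries, as a description). The count of members at least 2-fold apart was 2, and 1 with spike-in scaling, where Abca4 (0.97) was just inside the limit. The median log2 ratio of -0.04 became -0.27 with spike-in scaling. Of 36 single ratios, spike-in scaling turned the sign of 11, ratios of deposited TPM of 7, the second table of 2, DESeq2 size factors of 1, and 1 added to each count of 0; none of the members at least 2-fold apart changed sign. Of 9 log2 ratios between members, 6 moved by more than the spread between the animals on expected counts with no length correction and 4 in the second table, where that of Abcc1 to Abcc4 changed sign (-0.07). No paired analysis was possible because the series has 1 group. Low counts, and 1 library per animal, limit what can be said of members under 1 TPM.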
